A study of Homo sapiens with 12 samples.

Results

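Transcripts of 10 keratins were followed in HaCaT cells, a spontaneously immortalized line of human skin keratinocytes, during repeated exposure to blue light. The genes were taken by name from the deposited gene count table in 3 classes: the basal keratins KRT5, KRT14 and KRT15, the suprabasal keratins KRT1, KRT10 and KRT13, and the simple epithelial keratins KRT7, KRT8, KRT18 and KRT19. They make up 10 of the table's 45372 rows, of which 22754 had a count in any library. All 10 passed the filter on low counts and were among the 12878 genes tested.

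Keratins are the intermediate filament proteins of epithelial cells. A filament is built from pairs of 1 type I and 1 type II chain, so KRT5 (type II) assembles with KRT14 or KRT15 (type I), KRT1 with KRT10, KRT4 with KRT13, and KRT8 with KRT18. In epidermis, dividing basal cells make KRT5 and KRT14, and cells that leave the basal layer switch to KRT1 and KRT10. KRT13 and its partner KRT4 belong to the suprabasal layers of internal stratified epithelia such as oral mucosa and oesophagus. KRT8, KRT18, KRT19 and KRT7 are keratins of single-layered and glandular epithelia, which normal interfollicular epidermis largely lacks, while cultured keratinocyte lines often carry them.

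The cells, labelled wild-type, received 50 J/cm2 of 408 nm light per session at an irradiance of 4.6 mW/cm2, with 3 sessions a week for at most 14 weeks. They were irradiated in phosphate-buffered saline, and the submitters chose the dose for the share of HaCaT cells it kills. Irradiated cultures were sampled after 3, 14 or 42 irradiations (blue_3, blue_14 and blue_42), and each had its own dark controls (dark_3, dark_14 and dark_42), with libraries a and b in each of the 6 groups. All cells were grown in medium with serum, which all groups share, and all come from 1 line. The labels do not say how the dark cultures were handled during a session. Nor do they say that a and b were separate cultures, so p-values measure library-to-library spread alone, and that may be technical.

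Library totals ran from 2073160 counts in blue_14 b to 8183941 in blue_42 b, and 3 of the 4 libraries at 14 irradiations held 3561392 counts or fewer. All 11 keratinocyte markers checked were above 1 CPM on average (CPM, counts scaled to a common total with TMM factors), and their sum was 4730 to 7212 CPM. Melanocyte markers summed to at most 1.91 CPM, with MLANA, TYR and TYRP1 at 0 in every library, leukocyte markers to 3.31 to 12.02 CPM, and fibroblast markers to 5.23 to 15.8 CPM. All 12 neuronal markers checked had counts, summing to 82.7 to 254 CPM, most of it from the neurofilament gene NEFL at a mean of 94.6 CPM. Markers of simple and glandular epithelium summed to 340 to 433 CPM, led by EPCAM at a mean of 204 CPM, while TFF3 and NKX2-1 were at 0.

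On GRCh38, in the GENCODE 29 annotation, the type II genes and KRT18 lie on chromosome 12 within 720 kb. KRT7 spans 52232520 to 52252186, KRT5 52514575 to 52520687, KRT1 52674736 to 52680407, KRT8 52897187 to 52949954 and KRT18 52948871 to 52952901. The type I genes apart from KRT18 lie on chromosome 17 within 769 kb. KRT10 spans 40818117 to 40822595, KRT13 41500981 to 41505705, KRT15 41513743 to 41522529, KRT19 41523617 to 41528308 and KRT14 41582279 to 41586921. All 10 are protein-coding genes with at most 6 to 10 exons in their transcripts. The KRT8 and KRT18 models overlap on opposite strands, and KRT10 overlaps an antisense gene counted as KRT10-AS1, whose 1476 counts equal 13.9% of those of KRT10.

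Each count is a 3' tag, about 1 per transcript, so levels of different genes can be set side by side without scaling by length. Reads may still be shared with near-identical copies. Of the 50-base words in the last 300 bases of each transcript, 25.6% for KRT8, 22.3% for KRT14 (with the pseudogene KRT16P6), 21% for KRT18 and 6.2% for KRT5 (with KRT6A, KRT6B and KRT6C) also occur in another gene. The pseudogene rows of the table held few counts, 70 over 51 KRT8 pseudogenes against 8411 for KRT8 and 157 over 74 KRT18 pseudogenes against 26097 for KRT18. Counting that leaves out reads with more than 1 possible origin would also give low pseudogene rows. These values therefore do not show how many keratin reads were shared or lost. Counts of KRT16P6 were not looked at.

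Keratins were abundant transcripts in every library, and the most abundant was a mucosal one. KRT13 had the highest mean level over the 12 libraries, 3394 CPM, and ranked 16 of all genes. KRT19 followed at 2458 CPM, KRT15 at 1541, KRT5 at 1004, KRT14 at 664, KRT7 at 573, KRT18 at 336, KRT10 at 149, KRT8 at 110 and KRT1 at 35.1 CPM. Neighbours in that order overlapped in their ranges over the 12 libraries, except that KRT7 was always above KRT18, KRT18 always above KRT10, and KRT8 always above KRT1. KRT10, KRT8 and KRT1 were the 3 least abundant, so both chains of the epidermal differentiation pair stood below the basal pair KRT5 and KRT14. Together the 10 genes took 0.733% of all counts in dark_42 a and 1.33% in blue_14 b.

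Among basal keratins, KRT5, the type II chain of the basal filament, had 1173 and 1080 CPM in dark_3 (libraries a and b) and 1471 and 983 in blue_3. It had 962 and 1045 CPM in dark_14, 1474 and 953 in blue_14, 641 and 515 in dark_42, and 1023 and 724 in blue_42. Both dark_42 libraries were at the 2 lowest values of the 12, below both blue_42 libraries, whereas irradiated and dark libraries overlapped at 3 and at 14 irradiations. Its partner KRT14 had 672 and 727 CPM in dark_3, 787 and 668 in blue_3, 693 and 614 in dark_14, 789 and 628 in blue_14, 503 and 568 in dark_42, and 643 and 678 in blue_42. Its 2 lowest libraries were also those of dark_42, within a range of 1.57-fold from lowest to highest against 2.86-fold for KRT5. KRT15, a type I keratin of basal cells and hair follicle stem cells, had 1144 and 1186 CPM in dark_3, 1631 and 1384 in blue_3, 2205 and 1500 in dark_14, 1927 and 2342 in blue_14, 1000 and 1384 in dark_42, and 1297 and 1490 in blue_42. Its highest means in both conditions were at 14 irradiations, and its dark_42 libraries spanned a range that included both dark_3 values.

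Among suprabasal keratins, KRT13 had 3131 and 3297 CPM in dark_3, 4175 and 3637 in blue_3, 5009 and 3569 in dark_14, 3507 and 4940 in blue_14, 1956 and 2047 in dark_42, and 2550 and 2917 in blue_42. Both dark_42 libraries were the 2 lowest and the blue_42 libraries the next lowest, without overlap. KRT10, the type I chain of the spinous filament, stayed between 117 CPM in dark_42 a and 228 CPM in blue_14 b, a 1.95-fold range. KRT1, its type II partner, was scarce and the most variable of the 10, with 29.6 and 28.5 CPM in dark_3, 27.8 and 25.7 in blue_3, 70.2 and 22.1 in dark_14, 65.5 and 81.2 in blue_14, 6.15 and 19.0 in dark_42, and 14.7 and 31.1 in blue_42. Its lowest and highest libraries differed 13.2-fold, and the values of dark_14 a and dark_14 b lay as far apart as 70.2 and 22.1 CPM. Among the 4 libraries at 14 irradiations, dark_14 b had the lowest KRT1 and the largest total, 7950222 counts, against 3561392, 3517401 and 2073160 in the others; the part of depth in this difference was not tested.

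Among simple keratins, KRT19, a type I chain without a tail domain, had 1797 and 1884 CPM in dark_3, 2337 and 2292 in blue_3, 3172 and 2635 in dark_14, 2738 and 3127 in blue_14, 1968 and 2673 in dark_42, and 2269 and 2601 in blue_42. Both dark_3 libraries lay below the other 10. KRT18, the type I chain of the simple filament, was lowest at 14 irradiations, with 404 and 397 CPM in dark_3, 321 and 358 in blue_3, 299 and 284 in dark_14, 252 and 259 in blue_14, 380 and 397 in dark_42, and 329 and 353 in blue_42. All 6 irradiated libraries were below both of their dark controls. KRT8, its type II partner, had 137 and 132 CPM in dark_3, 138 and 95.8 in blue_3, 107 and 117 in dark_14, 105 and 90.7 in blue_14, 95.03 and 84.7 in dark_42, and 116 and 104 in blue_42. KRT7, a type II keratin of glandular ducts, was the steadiest, between 498 CPM in dark_3 a and 728 CPM in dark_14 a. In bulk RNA, fewer cells that make a keratin and less of its RNA per cell cannot be told apart.

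**Figure D1:**
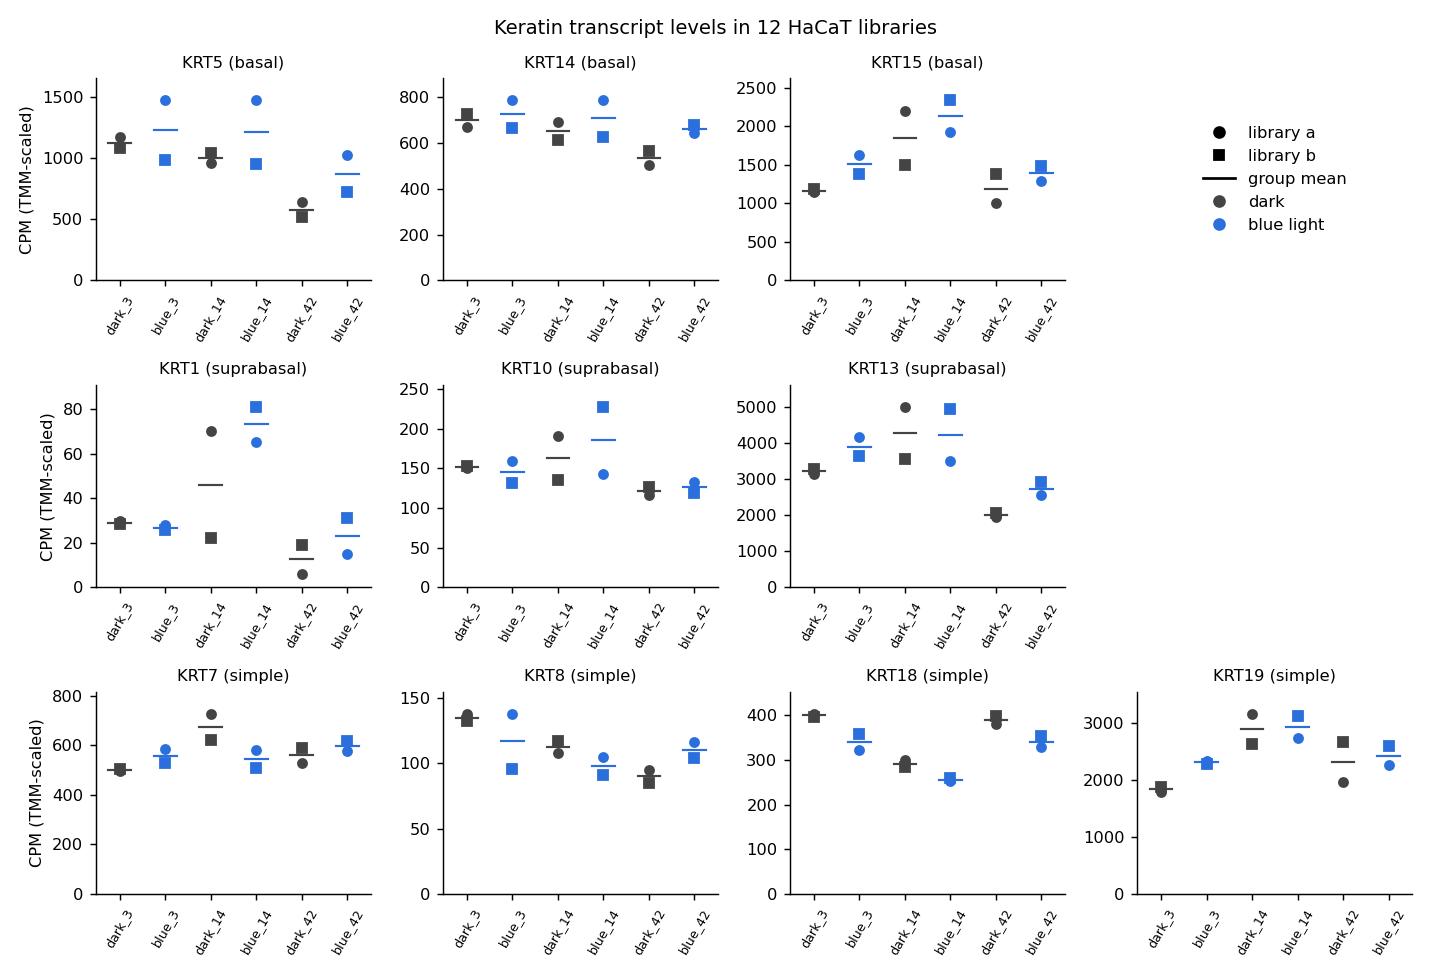
Transcript level of each keratin in CPM (TMM-scaled, linear axes from 0) in the 12 libraries, by group; circles are libraries a, squares libraries b, grey is dark, blue is irradiated, and bars are group means of 2 libraries. KRT5, KRT14, KRT13, KRT8, KRT1 and KRT10 had their lowest means in dark_42, and KRT15 its highest at 14 irradiations. The irradiated KRT18 libraries lay below their dark controls at each number of irradiations.

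The first comparison asks whether blue light changed keratin transcripts against matched dark cultures. With edgeR's quasi-likelihood test, none of the 10 keratins was called after 3 irradiations, where 0.0155% of all tested genes were called, after 14, where 0% were, or after 42, where 1.23% were. None was called for the average of the 3 effects (0.0699% of all genes), and DESeq2 called none in any of these 4 comparisons. At an unadjusted p under 0.05 there were 2, 1, 4 and 5 of 10 keratins, against 6.92%, 5.89%, 13.3% and 8.29% of all genes. Libraries of the 2 groups did not overlap for 6 keratins after 3 irradiations (43.6% of all genes), 3 after 14 (33.2%) and 5 after 42 (42.2%).

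The light differences after 42 irradiations were mostly above 0. On the log2 scale 9 of 10 keratins were positive with a median of 0.26, against -0.0032 over all tested genes. KRT5 differed by 0.60 ± 0.25 (SE; adjusted p = 0.346), from a mean of 578 ± 89.1 CPM in dark_42 (SD, n = 2) to 873 ± 211 CPM in blue_42. KRT14 differed by 0.30 ± 0.13 (adjusted p = 0.285) and KRT13 by 0.45 ± 0.16 (adjusted p = 0.213), both with both blue_42 libraries above both dark_42 libraries. KRT8 differed by 0.29 ± 0.14 (adjusted p = 0.371), while its partner KRT18 differed by -0.19 ± 0.10 (adjusted p = 0.461). KRT1 differed by 0.87 ± 0.73, with a 95% interval from -0.89 to 2.64 that spans a large change either way. For the others the intervals were narrower: -0.37 to 0.47 for KRT10, -0.15 to 0.33 for KRT7, -0.22 to 0.36 for KRT19 and -0.17 to 0.62 for KRT15. KRT13 was the only keratin called for light at 42 in any alternative, with adjusted p = 0.0144 without the filter on low counts and 0.0437 without the libraries at 14 irradiations; over all its alternatives the adjusted p ran from 0.0144 to 0.632. Without blue_42 a the KRT5 difference was 0.32, and without blue_42 b it was 0.83.

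At the earlier times no light difference was called either. After 3 irradiations KRT19 differed by 0.33 ± 0.14 (adjusted p = 0.645), KRT18 by -0.24 ± 0.10 (adjusted p = 0.68) and KRT15 by 0.37 ± 0.18 (adjusted p = 0.733). After 14 irradiations KRT7 differed by -0.30 ± 0.12 (adjusted p = 0.804), with irradiated libraries at 581 and 510 CPM below dark ones at 728 and 622. Averaged over the 3 numbers of irradiations, KRT18 had the smallest p of the 10, with -0.21 ± 0.06 and an adjusted p of 0.318, and it was lower in 6 of 6 irradiated libraries. The average for KRT15 was 0.27 ± 0.11 (adjusted p = 0.548), called without the filter on low counts (adjusted p = 0.0425), for KRT13 0.24 ± 0.09, for KRT5 0.33 ± 0.14 and for KRT14 0.16 ± 0.07.

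The light effect was also compared between numbers of irradiations, by testing the difference of the differences. None of the 10 keratins was called for 14 against 3 irradiations (0.0388% of all genes), 42 against 3 (0.435%) or 42 against 14 (0.0544%), and DESeq2 called none. At an unadjusted p under 0.05 there were 1, 1 and 2 of 10, against 8%, 11.3% and 8.04% of all genes. KRT8 had the smallest adjusted p for 42 against 3, 0.341, with a light effect higher by 0.50 ± 0.20 after 42 irradiations. That call appeared without blue_3 a (adjusted p = 0.044), where the value was 0.79, and the value was 0.26 without blue_3 b. KRT7 differed by -0.45 ± 0.17 for 14 against 3 (adjusted p = 0.442).

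**Figure D2:**
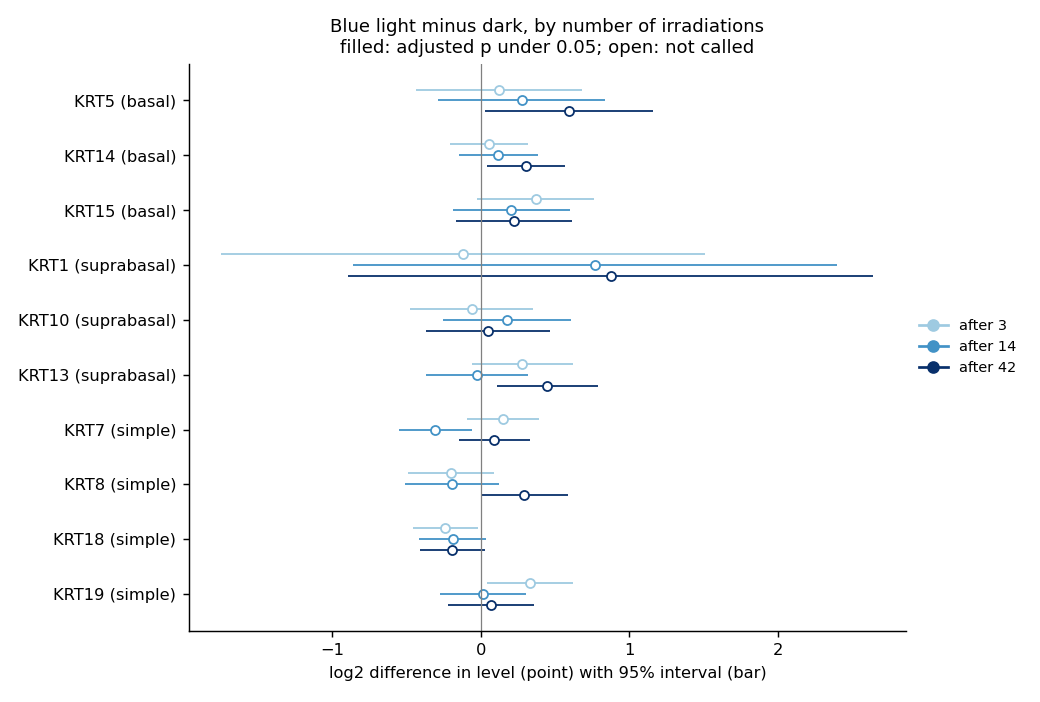
Log2 difference of irradiated minus dark libraries for each keratin after 3, 14 and 42 irradiations, with 95% intervals from the edgeR fit; filled points would be called at an adjusted p under 0.05. All 30 points are open; KRT1 has the widest intervals, and 9 of 10 points after 42 irradiations lie to the right of 0.

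Time in culture was compared within the dark controls, which received no light. Each time has its own set of libraries. Time therefore cannot be told apart from anything else that differed between the samplings, such as handling, library preparation or depth. Here keratins of all 3 classes were called, in different directions at the 2 later times. After 14 against 3, 4 of 10 were called, against 12.7% of all tested genes: KRT15, KRT19 and KRT7 rose (8.11% of all genes were called higher) and KRT18 fell (4.61% were called lower). After 42 against 3, 4 of 10 were called, against 17.7% of all genes, all lower (8.26% of all genes): KRT5, KRT14, KRT13 and KRT8. Between 14 and 42, 2 of 10 were called, against 7.04% of all genes: KRT13 fell (5.23% of all genes were called lower) and KRT18 rose (1.81% were called higher). The median keratin difference was 0.25, -0.35 and -0.37 on the log2 scale in these 3 comparisons, against 0.02, 0.02 and 0.01 over all tested genes. Dark libraries did not overlap for 7 keratins at 14 against 3 (62.8% of all genes) and 8 at 42 against 3 (62.4%). The comparisons share libraries: each dark group enters 2 of them, and dark_42 is also the control of the light comparison at 42.

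In the dark cultures at 14 against 3, KRT19 rose by 0.66 ± 0.14 on the log2 scale (adjusted p = 0.00477), its mean being 1840 ± 61.7 CPM in dark_3 and 2903 ± 380 CPM in dark_14 (SD, n = 2). KRT15 rose by 0.67 ± 0.18 (adjusted p = 0.03) and KRT7 by 0.43 ± 0.12 (adjusted p = 0.0208). KRT18 fell by 0.46 on the log2 scale, with an SE of 0.11 and adjusted p = 0.00822, from 400.3 ± 4.53 to 291 ± 11.1 CPM. KRT8, the partner of KRT18, differed by -0.26 ± 0.14 (adjusted p = 0.242), and KRT13 by 0.42 ± 0.16 (adjusted p = 0.103). KRT13 was called without dark_14 b, where it differed by 0.64, without blue_14 a, without the filter and on the compared libraries alone (smallest adjusted p = 0.0212), and differed by 0.13 without dark_14 a. None of the 4 calls survived the loss of either dark_3 library. Without dark_3 a the adjusted p was 0.0825 for KRT19, 0.173 for KRT15, 0.173 for KRT7 and 0.0938 for KRT18. Without dark_3 b it was 0.0522, 0.134, 0.142 and 0.0757, while the log2 differences of KRT19, KRT15, KRT7 and KRT18 stayed within 0.05 of those with all libraries. Without dark_14 a, KRT19, KRT15 and KRT7 were also not called (adjusted p = 0.103, 0.333 and 0.293), and KRT15 differed by 0.34. KRT18 was not called without dark_14 b (adjusted p = 0.0515).

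In the dark cultures at 42 against 3, the basal pair was lower together. KRT5 fell by 0.96 on the log2 scale, with an SE of 0.25 and adjusted p = 0.0275, and KRT14 fell by 0.39 with an SE of 0.13 and adjusted p = 0.0392. The mucosal KRT13 fell by 0.68 with an SE of 0.16 (adjusted p = 0.00778), from 3214 ± 117 to 2001 ± 64.0 CPM. KRT8 fell by 0.58 with an SE of 0.14 (adjusted p = 0.00696), from 135 ± 3.70 to 89.8 ± 7.33 CPM, whereas KRT18, whose gene model overlaps that of KRT8, differed by -0.04 ± 0.10 (adjusted p = 0.82). KRT15, the other type I basal chain, differed by 0.03 ± 0.18, and KRT19 by 0.33 ± 0.14 (adjusted p = 0.102). The epidermal pair KRT1 and KRT10 differed by -1.21 ± 0.73 and -0.32 ± 0.19, neither called; KRT10 was called in the fit on the compared libraries alone and in the fit without the libraries at 14 irradiations, with a smallest adjusted p of 0.04. KRT10-AS1, the antisense gene over KRT10, fell by 0.67 (adjusted p = 0.0179), a call lost without dark_3 a or dark_42 b (largest adjusted p = 0.309). The strand setting of the counting is unknown, so reads of KRT10 and KRT10-AS1 cannot be told apart.

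These calls too depended on single libraries. Without dark_42 b none of the 4 was called, with adjusted p = 0.243 for KRT5, 0.0639 for KRT14, 0.0537 for KRT13 and 0.0792 for KRT8. Without dark_3 a KRT13 remained called, and KRT5, KRT14 and KRT8 had adjusted p = 0.13, 0.123 and 0.0747. Without dark_3 b KRT8 remained called, and KRT5, KRT14 and KRT13 had adjusted p = 0.0866, 0.254 and 0.0672. KRT5 also lost its call without dark_42 a (adjusted p = 0.0667) and without dark_14 b (0.0527), and KRT14 without dark_42 a (0.163), where KRT19 was called at 0.54 (adjusted p = 0.0112). None of the 4 differences changed sign in any alternative run. The sum of the 12 neuronal markers, most of it from NEFL, was also lower, from 186 and 189 CPM in dark_3 to 123 and 82.7 CPM in dark_42. It was 121 and 97.6 CPM in blue_42. Single neuronal markers need not follow the sum, and their part in the result was not tested. The keratinocyte markers, which include KRT5 and KRT14, summed to 6309 and 6406 CPM in dark_3 and to 5053 and 4730 CPM in dark_42.

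Between 14 and 42 in the dark, KRT13 fell by 1.10 on the log2 scale with an SE of 0.16 (adjusted p = 0.000634), the largest called difference among the 10 keratins over all 13 comparisons; KRT4, its partner outside them, fell by 1.84 here (SE 0.21, adjusted p = 0.000422). It was called without each of the 12 libraries in turn, with differences from -1.32 to -0.83 and adjusted p from 6.68e-05 to 0.0106. KRT18 rose by 0.42 ± 0.11 (adjusted p = 0.0204), back to 389 ± 12.2 CPM from 291 ± 11.1. KRT18 was not called without dark_14 a, dark_14 b or dark_42 b (adjusted p = 0.0861, 0.129 and 0.0907). KRT15 differed by -0.63 ± 0.18 (adjusted p = 0.0532) and KRT5 by -0.80 ± 0.25 (adjusted p = 0.0969). KRT15 was called by DESeq2, without the filter, and without dark_14 b or dark_42 b (smallest adjusted p without a library 0.00755), and KRT5 with the letter as a block, on the compared libraries, without the filter, and without blue_14 a or blue_14 b (smallest 0.0464). KRT19, at -0.32 with all libraries (adjusted p = 0.177), was called without dark_42 b (0.0372). Of the 10 keratins, 9 had no overlap between dark_14 and dark_42 libraries, against 49.7% of all tested genes. Without dark_14 a only KRT13 was called.

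In the irradiated cultures, 1, 0 and 0 keratins were called over the same times. At 14 against 3, KRT18 fell by 0.41 on the log2 scale with an SE of 0.11 (adjusted p = 0.0288), 1 of 10 against 6.22% of all tested genes (2.6% were called lower). KRT1 differed by 1.43 ± 0.68 (adjusted p = 0.281), with 27.8 and 25.7 CPM in blue_3 and 65.5 and 81.2 in blue_14, and was called on the compared libraries alone (adjusted p = 9.43e-05). That KRT18 call was lost without dark_3 a or dark_3 b (adjusted p = 0.0593 and 0.059), blue_3 b (0.221), blue_14 a (0.0689) or blue_14 b (0.112). KRT15 (0.50, adjusted p = 0.122) was called without either dark_14 library (smallest 0.0488), and KRT10 (0.33, adjusted p = 0.356) without blue_14 a (0.0273). At 42 against 3, edgeR called 0 of 10, against 7.78% of all genes, with 1 of 10 at an unadjusted p under 0.05 (22% of all genes), and DESeq2 called 1. KRT13 differed by -0.52 ± 0.16 (adjusted p = 0.0612), from 3906 ± 381 to 2733 ± 260 CPM, and was called when any single library at 14 irradiations was left out, with a smallest adjusted p of 0.0218. KRT5 differed by -0.49 ± 0.25 (adjusted p = 0.294), KRT14 by -0.14 ± 0.13 (0.575) and KRT8 by -0.09 ± 0.14 (0.779). At 42 against 14, edgeR called 0 of 10, against 0.241% of all genes, with 5 at an unadjusted p under 0.05 (12.5% of all genes), and DESeq2 called 2, KRT13 and KRT18. KRT13 differed there by -0.63 ± 0.16 (adjusted p = 0.113), and by -0.85 with a call without blue_14 a (adjusted p = 0.0144) and -0.35 without blue_14 b, and KRT18 by 0.42 ± 0.11 (adjusted p = 0.103). KRT10, at -0.54 (adjusted p = 0.29), was also called without blue_14 a (0.0179). Whether the change over time differs between irradiated and dark cultures is the difference of light effects tested above, for which no keratin was called.

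**Figure D3:**
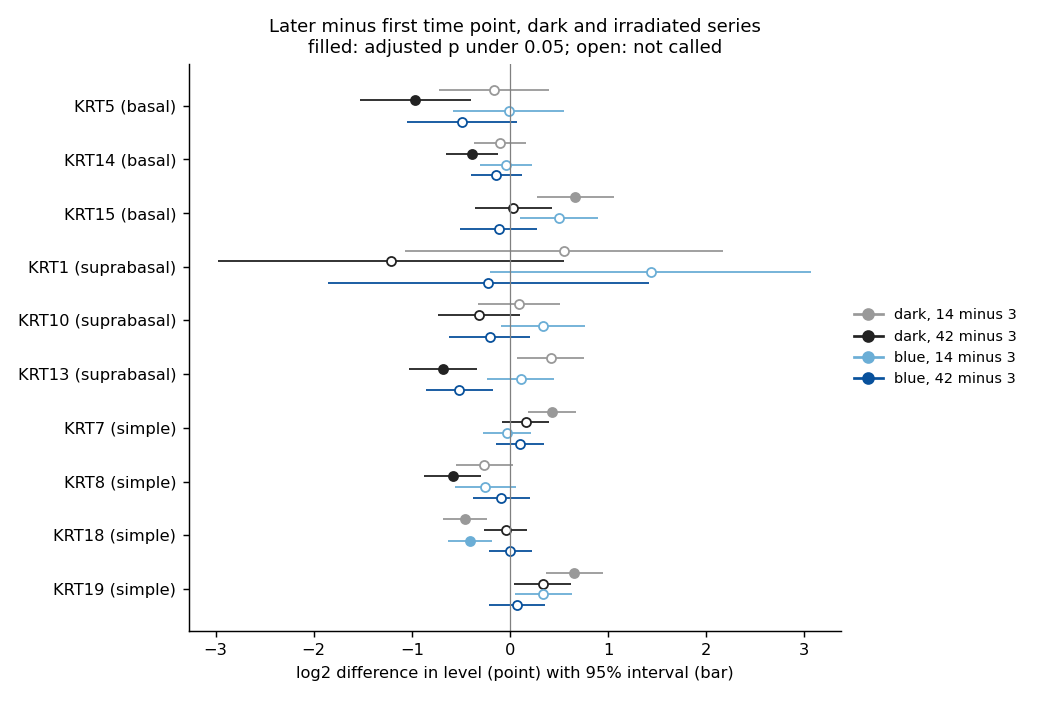
Log2 difference of later minus first time point for each keratin, with 95% intervals, in dark libraries (grey and black) and irradiated libraries (light and dark blue); filled points are called at an adjusted p under 0.05. Filled points are KRT15, KRT7, KRT18 and KRT19 for dark 14 minus 3, KRT5, KRT14, KRT13 and KRT8 for dark 42 minus 3, and KRT18 for irradiated 14 minus 3.

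Summed by class, the makeup of the keratin pool differed most at 42 irradiations, given here as a description, with no test run on the sums or shares. Simple keratins took 31.0% and 31.1% of the counts of the 10 genes in dark_3, and their share was 41.3% and 44.6% in dark_42 but 36.8% and 38.2% in blue_42. In the 6 other libraries, at 3 irradiations with light and at 14, their share was 29.1% to 34.7%. Suprabasal keratins took 36.2% and 37.0% in dark_3, 28.9% and 26.1% in dark_42, and 30.1% and 31.8% in blue_42. By contrast, the basal share stayed between 28.7% and 36.2% in all 12 libraries. The suprabasal sum was 3394 ± 118 CPM in dark_3, and 2136 ± 80.3 at dark_42 against 2882 ± 262 at blue_42, and most of it was KRT13. The simple sum was 2877 ± 58.6 CPM in dark_3, 3982 ± 459 in dark_14, 3832 ± 220 in blue_14, 3359 ± 546 in dark_42 and 3484 ± 272 in blue_42, so the higher share at 42 went with a lower mean sum than at 14. KRT19 made up most of it, 2320 ± 499 CPM in dark_42, whereas KRT8 of the same class was called lower at dark 42 against 3. The markers of simple and glandular epithelium other than keratins summed to 433 and 403 CPM in dark_3, 340 and 376 in dark_42, and 361 and 399.5 in blue_42.

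**Figure D4:**
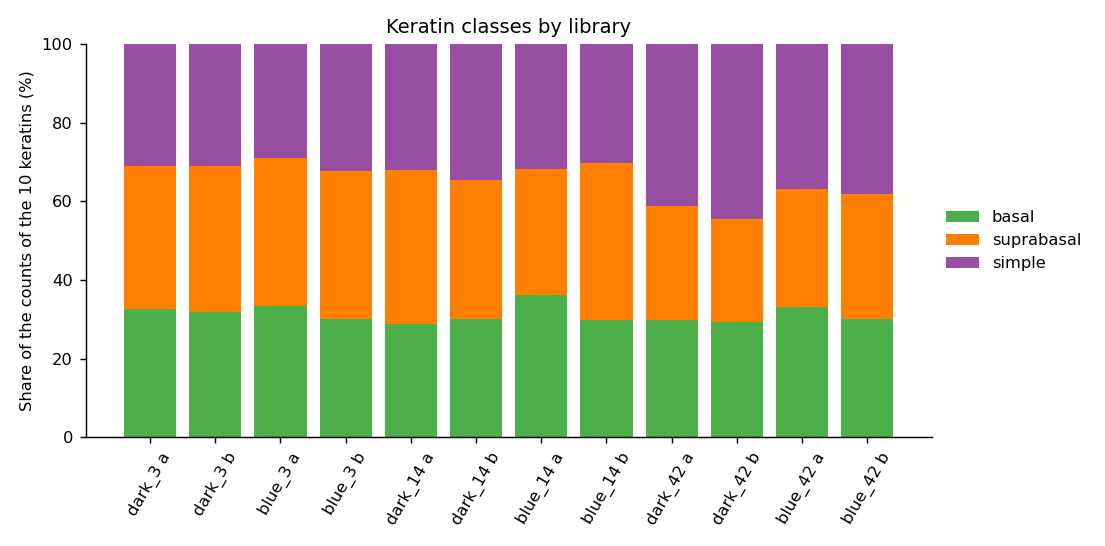
Share of the summed counts of the 10 keratins taken by the basal, suprabasal and simple class in each library, in percent (stacked bars add to 100). Simple keratins reach 41.3% and 44.6% (dark_42) and 36.8% and 38.2% (blue_42), against 29.1% to 34.7% in the other 8.

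Within the pairs that form filaments, the ratio of type II to type I counts is free of library scaling. KRT5 over KRT14 was 1.75 and 1.49 in dark_3, 1.27 and 0.906 in dark_42, and 1.59 and 1.07 in blue_42. KRT8 over KRT18 was 0.340 and 0.333 in dark_3, 0.250 and 0.213 in dark_42, and 0.354 and 0.296 in blue_42, so dark_42 held the lowest ratios of the 12 libraries. The KRT8 and KRT18 gene models overlap at their 5' ends, from 52948871 to 52949954, away from the 3' ends that the tags mark. With the strand setting unknown, any reads from that overlap cannot be told apart. KRT4 over KRT13 was 0.124 and 0.133 in dark_3, 0.137 and 0.146 in blue_3, and between 0.0404 and 0.0896 in the 8 later libraries of both conditions. KRT1 over KRT10 ranged from 0.0527 in dark_42 a to 0.458 in blue_14 a and differed widely between libraries of a group. KRT7 and KRT19, which need not pair with each other, had ratios of 0.163 to 0.277. These ratios were not tested, and they compare transcripts, not protein.

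**Figure D5:**
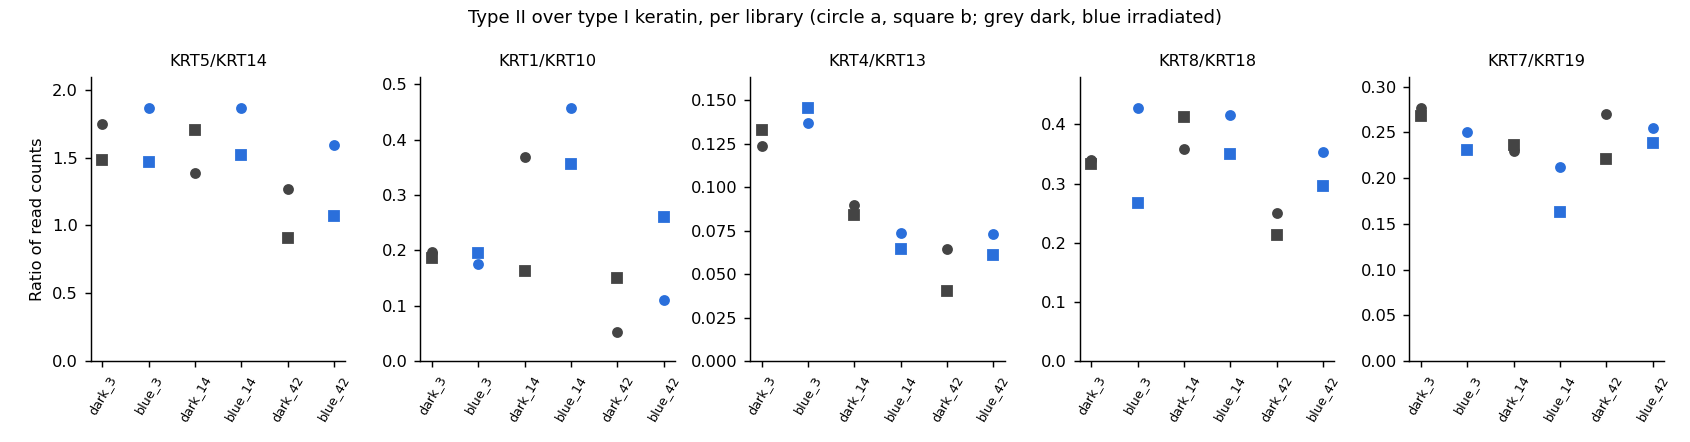
Ratio of type II to type I keratin read counts in each library (linear axes from 0; circles are libraries a, squares libraries b, grey is dark, blue is irradiated). KRT4/KRT13 lies at 0.124 to 0.146 at 3 irradiations and at 0.0896 or lower later, and KRT8/KRT18 is lowest in the dark_42 libraries.

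Other keratins of the family were looked at as a list of 25, of which 11 passed the filter. None was called for light at 3, 14 or 42 irradiations. KRT4, the type II partner of KRT13, was called in the same direction in both conditions: it had 388 and 438 CPM in dark_3, 573 and 531 in blue_3, 449 and 300 in dark_14, 257 and 318 in blue_14, 126 and 82.7 in dark_42, and 186 and 178 in blue_42. KRT4 fell by 1.99 on the log2 scale in the dark (SE 0.21, adjusted p = 7.62e-05) and by 1.60 in the irradiated cultures (SE 0.21, adjusted p = 0.000593) between 3 and 42 irradiations, and both calls held without each of the 12 libraries in turn. Its light difference at 42 was 0.81 ± 0.21 (adjusted p = 0.0929). At dark 42 against 3, where 8.26% of all tested genes were called lower, 0 of 11 were called higher and 2 lower, KRT4 and the hair keratin KRT81, which had 54.1 and 52.0 CPM in dark_3, 9.35 and 14.8 in dark_42, and 57.3 and 89.4 in blue_42. KRT81 shares much of its sequence with other hair keratins, its call at dark 42 against 3 (adjusted p = 0.0441) was kept without 4 of the 12 libraries, and its light difference at 42, 2.60 ± 0.54, was not called (adjusted p = 0.0981). The wound keratins KRT6A and KRT17 were abundant, at 312 to 751 and 548 to 798 CPM. KRT6A fell by 1.09 in the dark at 14 against 3 (SE 0.25, adjusted p = 0.0191), a call lost without either dark_3 library or either dark_14 library (largest adjusted p = 0.176), while KRT17 was called in no comparison. KRT6A reads may be shared with its near-identical copies KRT6B and KRT6C.

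Genes that regulate keratin expression were followed in a list of 30, of which 29 were tested. After 42 irradiations 0 of 29 were called higher and 1 lower for light, a share near the 1.23% of all tested genes called there. This was KLF4, a transcription factor of the differentiating epidermis. It had 14.4 and 14.7 CPM in dark_3, 28.4 and 24.5 in dark_14, and 32.4 and 32.4 in dark_42. In the irradiated cultures it had 12.7 and 10.8 CPM in blue_3, 24.1 and 34.4 in blue_14, and 15.6 and 17.5 in blue_42. KLF4 rose by 1.15 ± 0.16 in the dark from 3 to 42 (adjusted p = 6.99e-05), and its light difference at 42 was -0.97 ± 0.15 (adjusted p = 0.00275); both share dark_42, and the light call was lost without blue_42 a (adjusted p = 0.0641). In the irradiated cultures at 14 against 3, 7 of 29 were called higher and 0 lower. Of all tested genes, 6.22% were called there in either direction, and 2.6% were called lower. The list median was 0.42 against 0.01 over all tested genes. The genes called higher include TP63, the regulator of basal identity, by 0.86 ± 0.15 (adjusted p = 0.00181), called without each library in turn, and NOTCH1, JAG1, SOX9, ESRP1 and KLF4. In the dark at 14 against 3, 4 of 29 were also called higher, ELF3, KLF4, RELA and SATB1, and 0 lower. Of all tested genes, 12.7% were called there, and 8.11% were called higher. The list median there was 0.14 against 0.02 over all tested genes. For the light effect at 14 against 3, 0 of 29 were called (0.0388% of all tested genes). In the dark at 42 against 3, 2 of 29 were called higher and 2 lower. Of all tested genes, 17.7% were called there, and 8.26% were called lower. TFAP2C, an AP-2 factor of epidermis, fell by 0.62 with an SE of 0.12 (adjusted p = 0.00128), and NOTCH3 also fell while KLF4 and SATB1 rose. SATB1 came from almost no reads, with 0 and 0.144 CPM in dark_3 and 3.33 and 1.56 in dark_42. At dark 42 against 14, 0 of 29 were called higher and 3 lower, JUNB, RELA and TFAP2C (5.23% of all tested genes were called lower). At irradiated 42 against 3, 3 were called higher, SATB1, SOX9 and TP63, and 1 lower, OVOL1 (7.78% of all tested genes were called).

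Transcripts of genes whose proteins fold, degrade or bind keratins were tested as a list of 11. With light at 42, where 1.23% of all tested genes were called, 1 of 11 was called higher and 0 lower: SFN, the 14-3-3 sigma protein of stratified epithelia, at 930 and 745 CPM in dark_42 and 1220 and 1300 in blue_42. This SFN difference was 0.58 ± 0.12 (adjusted p = 0.017), and the call was lost without dark_42 b, blue_42 a or blue_42 b (largest adjusted p = 0.207) and in the fit on the compared libraries alone (0.0685). In the dark at 42 against 3, 1 of 11 was called higher, the autophagy receptor SQSTM1 (0.66 ± 0.11, adjusted p = 0.000273), and 4 lower, where 17.7% of all tested genes were called and 8.26% were called lower. These were SFN, with a fall of 0.76 (adjusted p = 0.000212), the chaperones HSPB1 and HSPA8, and DNAJB6, a cochaperone that binds KRT18. SQSTM1 and SFN were called in that comparison without each of the 12 libraries.

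The list of desmosomal and other linkers to the keratin network, and of its partners, 19 genes that were all tested, had no member called for light at 3, 14 or 42. FLG, the filament-aggregating protein of the cornifying layer, was the exception among differences of light effects, 1 of 19 called at 42 against 3 (0.435% of all tested genes), with 57.1 and 66.1 CPM in dark_3, 30.3 and 38.7 in blue_3, 51.2 and 34.9 in dark_42, and 64.4 and 61.3 in blue_42. Its light effect was higher by 1.39 ± 0.22 at 42 than at 3 (adjusted p = 0.0132), a call lost without dark_3 b, blue_42 a or blue_42 b (largest adjusted p = 0.1). Over time FLG fell in the dark at 14 against 3 (log2 -0.62 ± 0.16, adjusted p = 0.0179) and at 42 against 3 (-0.52 ± 0.16, adjusted p = 0.0277), and rose in the irradiated cultures at 42 against 3 (0.87 ± 0.16, adjusted p = 0.00196). The FLG falls were not called without dark_3 a or dark_3 b, nor the first without dark_14 a and the second without dark_42 b (largest adjusted p = 0.167 and 0.349), and the rise was not called without blue_3 a (0.064). Of the other genes of this list, ALDOC, listed as a partner and not as a linker, was called higher at 14 and at 42 against 3 in both conditions. PKP1 was called higher at irradiated 14 against 3. PPL was called lower at dark 14 and 42 against 3, PKP2 at dark 14 against 3, DSC2 at dark 42 against 14 and PLEC at irradiated 42 against 3. With FLG, 1 of 19 was called higher and 3 lower at dark 14 against 3 (12.7% of all tested genes were called). At dark 42 against 3 these were 1 and 2 (17.7%), and at dark 42 against 14 they were 0 and 1 (7.04%). At irradiated 14 against 3 they were 2 and 0 (6.22%), and at irradiated 42 against 3 they were 2 and 1 (7.78%). None of the 14 calls of this list held without each of the 12 libraries in turn. DSP, the desmosomal plaque protein that anchors keratins, was called in no comparison and stayed at 1040 to 1380 CPM.

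Of 16 genes of the suprabasal and cornified layers, 15 were found in the table and 5 passed the filter on low counts. None of the 5 was called for light at 3, 14 or 42 irradiations, where 0.0155%, 0% and 1.23% of all tested genes were called. At dark 14 against 3, 3 of 5 were called higher, CNFN, IVL and TGM1, and 0 lower (8.11% of all tested genes were called higher). At dark 42 against 14, 0 were called higher and 3 lower, CNFN, IVL and SPRR1B (5.23% of all tested genes were called lower). CNFN and SPRR1B were scarce, at means of 3.19 and 5.32 CPM. IVL, the cornified envelope precursor involucrin, was the most abundant, with 106 and 106 CPM in dark_3, 193 and 164 in blue_3, 225 and 164 in dark_14, 144 and 178 in blue_14, 68.8 and 86.2 in dark_42, and 76.3 and 77.9 in blue_42. In the dark, IVL rose by 0.87 ± 0.15 at 14 against 3 (adjusted p = 0.00128) and fell by 1.32 at 42 against 14 (SE 0.15, adjusted p = 5.05e-05), the latter also the direction of KRT13. In the irradiated cultures it fell by 1.21 at 42 against 3 (SE 0.15, adjusted p = 4.44e-05). IVL was also called lower at dark 42 against 3 (8.26% of all tested genes were called lower). It was called lower at irradiated 42 against 14 too, where 0.241% of all tested genes were called. TGM1, which crosslinks the cornified envelope, rose by 1.42 ± 0.26 in the dark at 14 against 3 (adjusted p = 0.00159). TGM1 was also called higher at dark 42 against 3, where 17.7% of all tested genes were called. Of the 10 called differences of this list, 4 held without each of the 12 libraries in turn. These were the IVL and TGM1 calls given here with an adjusted p. Over the 5 lists, 17 of 73 called differences did so.

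For the most abundant keratin of each class, the genes most alike over the 12 libraries were found by Pearson's r of log2 CPM among 8673 genes of at least 10 CPM outside the family. KRT15 was closest to TUBG2, PDLIM4 and GRN (r = 0.963, 0.961 and 0.954). KRT13 was closest to GADD45B, TUFT1 and CYP4F3 (r = 0.981, 0.967 and 0.962), and KRT19 to RELB, WIPI2 and RIPK4 (r = 0.97, 0.966 and 0.963). The 12 points share groups, libraries and scaling, and the genes were picked as the highest of many, so the values describe these libraries and carry no test.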

How the data were processed

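Transcript levels were measured in 12 libraries, 2 in each of 6 groups, made with QuantSeq 3' mRNA-Seq FWD chemistry, per the labels' protocols. The authors deposited raw read counts per gene as whole numbers. STAR, featureCounts and the GRCh38 build are named in the submitters' processing notes, without versions, whereas no source at hand names the annotation, the strand setting or any use of molecular identifiers. The 2 libraries of a group differed by more than sampling noise (chi-square per degree of freedom 1.64 in dark_3, 5.05 to 8.57 elsewhere), so no pair was treated as a repeat deposit of 1 library; the check does not show that a and b were separate cultures.

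From the deposited counts, genes were filtered with filterByExpr at a minimum count of 10, scaled by TMM and tested with edgeR 4.0.16 (quasi-likelihood, robust) in R 4.3.3, in 1 model with a mean per group leaving 6 residual degrees of freedom. All tests are two-sided, with Benjamini-Hochberg adjustment over 12878 genes within each of 13 comparisons, and "called" means an adjusted p under 0.05. The SE of a log2 difference was computed back from its test statistic, and errors of levels are SD over 2 libraries. CPM counts are relative to the TMM-scaled total, and 3 counts equal 0.367 to 1.45 CPM, for counting error only. The common biological coefficient of variation was 9.41%.

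All 10 keratins are described whatever their values. From the related lists, genes called in a comparison and a few of the most abundant are named. The members and lists were chosen with earlier results of these data known. Alternatives were RLE scaling, DESeq2 1.42.0, no filter, the letter as a block, only the libraries compared, and leaving out each library. A fit without the libraries at 14 irradiations and a block with crossed letters were added after seeing the data. The scripts were tested on simulated counts. Gene positions came from GENCODE 29 on GRCh38.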

Additional observations from a re-analysis of the deposited data

How the results depend on the processing

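No keratin was called for light at 3 or at 14 irradiations under any alternative run. One keratin was called for light at 42 without the filter (count 1) and without the 14-irradiation libraries (1), and for the average without the filter (1). With no filter the counts were also 5 for dark 42 against 14, 2 for irradiated 14 against 3, 1 for irradiated 42 against 3 and 4 for irradiated 42 against 14. DESeq2 called 1 and 2 in the last 2 of these, and the fits on the compared libraries and without the 14-irradiation libraries called 1 in irradiated 42 against 3.

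Leaving out each library in turn, keratins called ranged from 0 to 5 for dark 14 against 3 (0 without dark_3 a or b, 1 without dark_14 a), 0 to 4 for dark 42 against 3 (0 without dark_42 b, 1 without dark_3 a or b), 1 to 3 for dark 42 against 14, 0 to 2 for irradiated 14 against 3 and 42 against 14, and 0 to 1 for irradiated 42 against 3 and for the light effect at 42 against 3. Some uncalled light differences changed sign. At 3 irradiations KRT5 ranged from -0.198 to 0.384, KRT14 from -0.0684 to 0.169, KRT10 from -0.205 to 0.0649 and KRT8 from -0.492 to 0.0317. At 14, KRT5 ranged from -0.0805 to 0.562, KRT14 from -0.0604 to 0.281, KRT15 from -0.0491 to 0.507, KRT10 from -0.167 to 0.491, KRT13 from -0.281 to 0.241 and KRT19 from -0.115 to 0.153. At 42, KRT10 ranged from -0.0331 to 0.13 and KRT19 from -0.132 to 0.308. For the average, KRT10 ranged from -0.062 to 0.16, KRT7 from -0.0572 to 0.015 and KRT8 from -0.13 to 0.045.

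Counts over all genes moved more. Light at 3 called 2 genes, and 0 to 6 without 1 library, 1 with DESeq2, 54 with no filter, 0 with the block, 22 on the compared libraries and 8 without the 14-irradiation libraries. Light at 14 called 0, and 0 to 11, 2 with DESeq2 and 14 with no filter. Light at 42 called 158, and 24 to 235, 420 with no filter, 100 on the compared libraries and 246 without the 14-irradiation libraries. The average called 9, and 2 to 22, 21 with DESeq2, 87 with no filter and 4 with the block. The light effect at 14 against 3 called 5, and 1 to 38, 15 with DESeq2, 115 with no filter and 12 on the compared libraries. At 42 against 3 it called 56, and 2 to 209, 288 with no filter and 92 with the block. At 42 against 14 it called 7, and 2 to 53, 25 with DESeq2, 80 with no filter and 2 on the compared libraries. Dark 14 against 3 called 1638, and 336 to 1987, and 2651 on the compared libraries. Dark 42 against 3 called 2284, and 765 to 2574. Dark 42 against 14 called 907, and 284 to 1113, and 443 on the compared libraries. Irradiated 14 against 3 called 801, and 110 to 1076, 1348 with no filter and 503 on the compared libraries. Irradiated 42 against 3 called 1002, and 258 to 1224, and 615 with DESeq2. Irradiated 42 against 14 called 31, and 7 to 253, 61 with DESeq2 and 298 with no filter. The causes were not tested.

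The letters a and b were not used as pairs: dark and irradiated libraries of the same letter correlated by 0.0925, -0.291 and 0.406 at 3, 14 and 42 irradiations over 8689 genes. With the replicate block, keratins called were 0 in each light comparison, 4 for dark 14 against 3, 4 for dark 42 against 3 3 for dark 42 against 14, and 1, 0 and 0 in the irradiated comparisons over time. With the letters of blue_14 crossed, the block called 0 keratins and 0 genes at 14. With plain library totals, the basal sum in dark_3 was 2940 CPM against 2991, and the suprabasal sum in dark_42 was 2219 CPM against 2136. Depth was least at 14 irradiations, where 3 counts equal 1.45 CPM in blue_14 b.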
